A study of Mus musculus with 9 samples.

Results

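Aquaporins are membrane proteins that form pores for water, and a subset of them, the aquaglyceroporins, also passes glycerol. The genes Aqp1, Aqp3, Aqp4, Aqp5, Aqp7, Aqp8, Aqp9 and Aqp11 were taken by symbol from a matrix of transcript levels in mouse tissues, with earlier results of these data known. These are 8 of the 17753 genes with a symbol in the matrix, and each had a single row. Brown fat, white fat and soleus muscle were compared, with 3 RNA-seq libraries of each tissue and 9 in all. All libraries came from wild-type C57BL/6J mice that were male and aged 3 months, with no treatment named in the labels. Heat production from fatty acids is the task of brown fat, lipid storage that of white fat, and the soleus is a posture-keeping calf muscle. The soleus libraries held transcripts of both slow and fast fibres. The labels give 3 mice but do not tie libraries to them, so the p-values measure the spread between these libraries, part of which may be technical. The labels do not name the depot of the white fat.

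In fat, the breakdown of stored triglyceride frees fatty acids and glycerol, and Aqp7 is the channel best known for letting that glycerol leave the adipocyte. Glycerol kinase can instead trap glycerol inside the cell as glycerol 3-phosphate, the backbone of new triglyceride. In muscle, Aqp4 sits in the fibre membrane and is held there by the syntrophins of the dystrophin complex, while Aqp1 lines the capillaries of many tissues.

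Levels are FPKM, fragments counted relative to transcript length and library total, and so can be set side by side between genes. Judged from the steps between low values, white fat replicate 2 was the shallowest library and white fat replicate 3 the deepest, at 3.63 times its depth, with the read totals unknown. The libraries had 8487 to 9305 genes at 1 FPKM or more, and their summed FPKM was 213936 to 234886 in white fat against 308950 to 352502 in brown fat and soleus. For the aquaporins, results whose call or direction changes when the libraries are rescaled to each other are given both ways. The sizes of other differences moved as well. Exact zeros can be failed estimates of the software. Cfd, the adipocyte gene for adipsin, was listed at 0 in all 3 white fat libraries and at 2096.7, 2145.3 and 2043.5 FPKM in brown fat.

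Aqp1 and Aqp7 supplied nearly all aquaporin transcript in each tissue. The summed FPKM of the 8 genes was 169.9, 156.7 and 169.8 in the brown fat libraries, 84.7, 108.4 and 95.8 in those of white fat, and 61.1, 69.1 and 83.5 in those of soleus, with replicates in order 1, 2 and 3 here and below. Aqp1 and Aqp7 together made up 98.4% to 99.0% of that sum in brown fat, 94.5% to 96.2% in white fat and 91.7% to 94.1% in soleus. The fats and the muscle differed in how the sum was divided. Aqp7 held 48.5% to 59.1% in brown fat and 35.4% to 48.0% in white fat but 3.78% to 9.68% in soleus, where Aqp1 alone held 82.0% to 90.0%. These shares do not depend on how libraries are scaled against each other. Aqp7 was the 539th highest gene of 17753 in brown fat by mean FPKM, the 963rd in white fat and the 5234th in soleus, whereas Aqp1 stayed between the 611th (soleus) and the 755th (white fat).

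**Figure D1:**
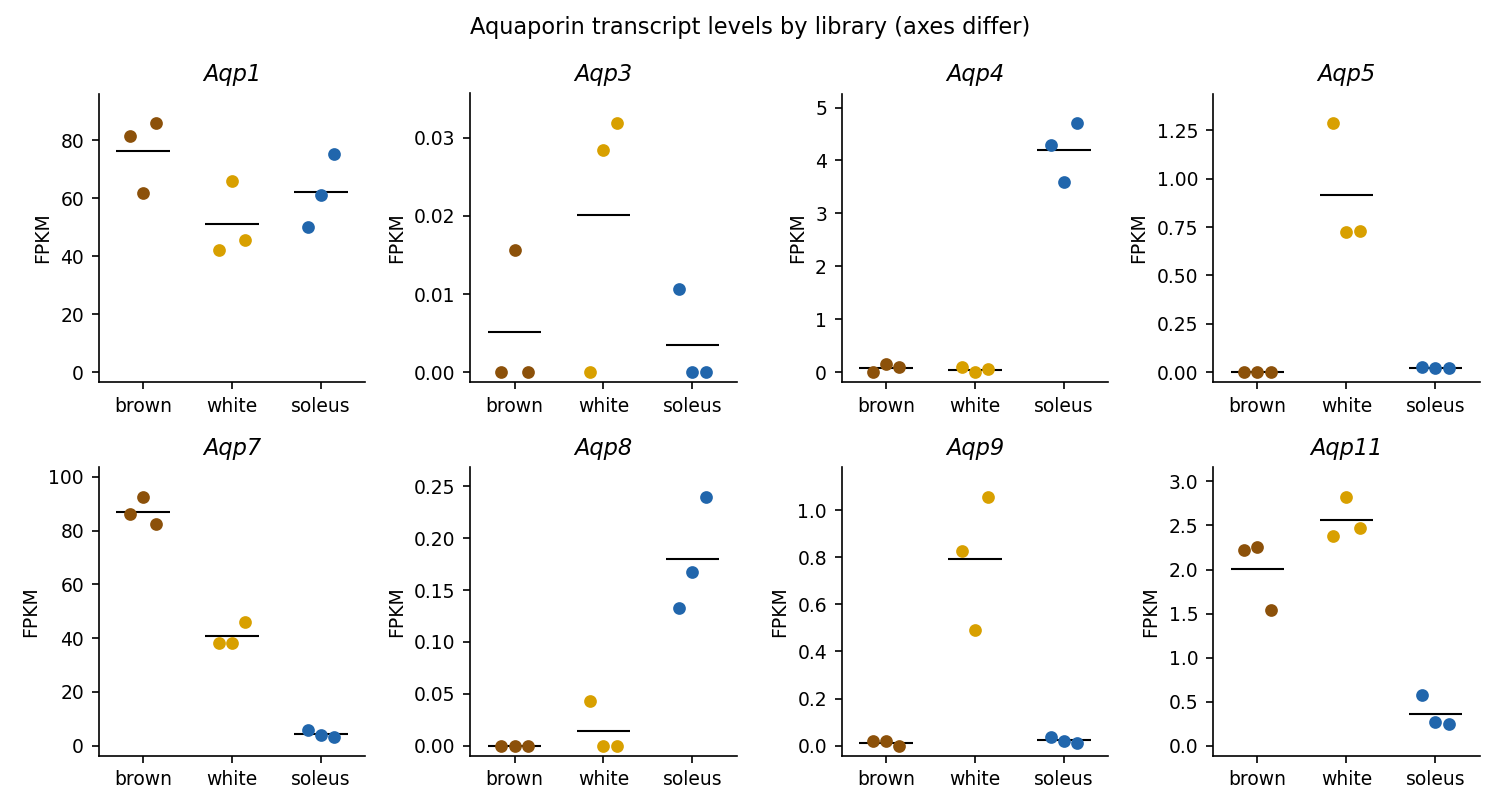
FPKM of each of the 8 aquaporin genes (y axis, scaled separately in each panel) in brown fat, white fat and soleus (x axis), with 1 point per library and a line at the mean of 3. Aqp7 descends from brown fat to white fat to soleus without overlap, Aqp1 overlaps between tissues, Aqp4 stands out in soleus, and Aqp5 and Aqp9 in white fat.

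**Figure D2:**
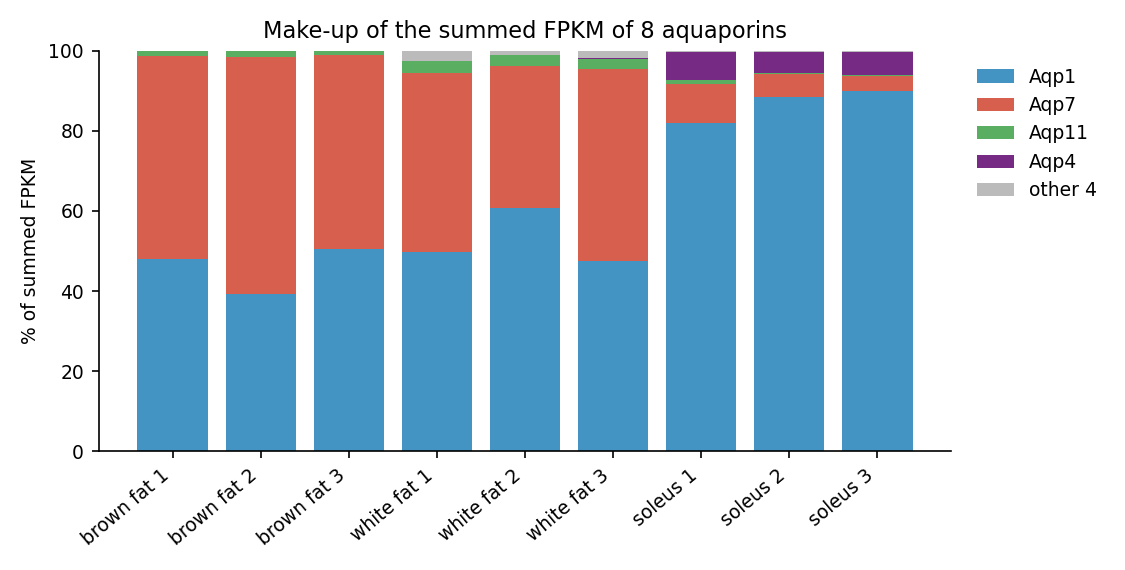
Percent of the summed FPKM of the 8 aquaporins (y axis) contributed by Aqp1, Aqp7, Aqp11, Aqp4 and the remaining 4 genes in each of the 9 libraries (x axis). Aqp1 and Aqp7 fill between 91.7% and 99.0% of every bar, and the Aqp7 part is 3.78% to 9.68% in the soleus libraries.

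Tissues were compared with limma on log2(FPKM + 1), fitted over the 9913 genes that reached 1 FPKM in 3 or more libraries, and a gene was called at a Benjamini-Hochberg adjusted p under 0.05. Of the 8 aquaporins, Aqp1, Aqp4, Aqp7 and Aqp11 passed that minimum. Aqp4 passed it only through its soleus libraries and Aqp11 only through the fats, so that both had to differ somewhere, and the counts that follow carry no weight of their own. In brown against white fat 2 of the 4 were higher and 0 lower, where 72.8% of all genes tested were called, 38.0% as higher and 34.8% as lower. In brown fat against soleus 2 were higher and 1 lower, beside 78.5% of all genes, 52.9% as higher and 25.6% as lower. In white fat against soleus the counts were again 2 higher and 1 lower, beside 84.2% of all genes, 54.5% as higher and 29.7% as lower. The share of calls that were higher was 52.2% in brown against white fat (22.6% in TPM), 67.4% in brown fat against soleus (47.5% in median of ratios scaling, 52.3% in upper quartile scaling) and 64.7% in white fat against soleus (78.8% in TPM, 50.1% in median of ratios scaling). With most genes differing between these tissues, the number of called aquaporins is not a result about the family, and the sizes and the levels are described gene by gene. The comparisons share their libraries, so that results for a gene in 2 comparisons are not independent.

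**Figure D3:**
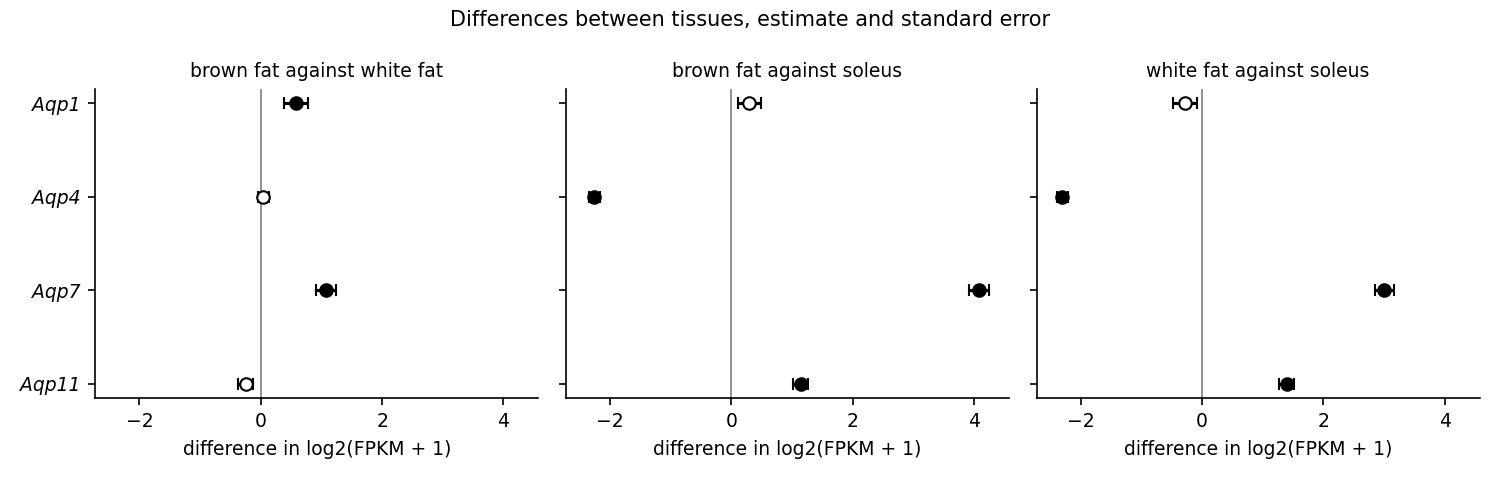
Fitted difference in log2(FPKM + 1) (x axis) of the 4 aquaporins that passed the minimum (y axis) in the 3 tissue comparisons, with standard errors from limma and filled points where the gene was called. Aqp7 lies at 4.08 and 3.00 against soleus and Aqp4 at -2.26 and -2.31, sizes that depend on the pseudocount (with 0.1, Aqp7 lies at 4.35 and 3.26 and Aqp4 at -4.63 and -4.90), while the points of Aqp1 lie between -0.28 and 0.58.

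Aqp7 was high in brown fat, intermediate in white fat and low in soleus. Its level was 86.2, 92.6 and 82.3 FPKM in brown fat (87.0 ± 5.18, SD, n = 3). In white fat it was 38.0, 38.4 and 45.9 FPKM (40.8 ± 4.47, SD, n = 3). The soleus libraries held 5.92, 3.86 and 3.15 FPKM (4.31 ± 1.44, SD, n = 3). No library of a tissue reached the range of another tissue. The mean of brown fat was 2.13 times that of white fat and 20.2 times that of soleus, and the mean of white fat was 9.46 times that of soleus. In limma the difference in log2(FPKM + 1) was 1.08 (SE 0.16, adjusted p = 1.2e-04) between the fats. Against soleus it was 4.08 for brown fat (SE 0.16, adjusted p = 1.8e-09) and 3.00 for white fat (SE 0.16, adjusted p = 1.7e-08). The gene was called in all 3 comparisons under each of 19 alternative settings. Rescaling to TPM (each library to the same sum) lowered the difference between the fats to 0.51 (adjusted p = 0.036) and moved the median of all genes from 0.03 to -0.495, so that Aqp7 lay 1.05 above that median as deposited and 1.00 above it in TPM. In bulk tissue, fewer cells of a type and less RNA per cell cannot be told apart.

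Other adipocyte genes did not all follow the order of Aqp7. Of the 8 adipocyte markers listed, 7 had a row, and their summed FPKM was 4255 to 4639 in brown fat, 7152 to 8508 in white fat, with Cfd at 0, and 123 to 576 in soleus. Between the fats, 4 of the 7 were lower in brown fat and 2 higher, beside 34.8% and 38.0% of all genes. The 2 were Pparg and Cfd, and the call of Cfd rests on its 0 in white fat. Adipoq, the gene of the secreted protein adiponectin, was at 1008.2 ± 88.8 FPKM in brown fat and 2876 ± 266 in white fat (SD, n = 3), an order opposite to that of Aqp7. Pparg, which encodes the regulator of fat cell formation, had 149.2 ± 4.55 FPKM in brown fat and 66.5 ± 3.21 in white fat (SD, n = 3), in the same order as Aqp7. Per library, Aqp7 over Adipoq was 0.0815 to 0.0909 in brown fat against 0.0124 to 0.0154 in white fat, whereas Aqp7 over Pparg was 0.548 to 0.642 against 0.552 to 0.728 and overlapped. Whether Aqp7 was high or level in brown fat relative to other adipocyte genes thus depended on the gene it was set against.

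Adipocyte transcripts were also present in the soleus libraries and varied together with Aqp7 there. Adipoq was at 77.1, 31.8 and 12.4 FPKM in soleus, and Aqp7 was likewise highest in replicate 1 and lowest in replicate 3. Aqp7 over Adipoq was 0.0768, 0.121 and 0.255. The part of adipocytes in the soleus value of Aqp7 was not tested. Without soleus replicate 1, the difference of Aqp7 was 4.29 for brown fat and 3.21 for white fat.

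Promoters are shown for Aqp7 and Aqp11, the tested aquaporins that were higher in both fats than in soleus, and for Aqp1, which was not called against soleus. They were taken by symbol from RefSeq on GRCm38.p6, another build than the mm9 of the reads, and 7 of the 8 genes had at least 1 promoter in the table. Each is the 250 bases before an annotated start, 5′ to 3′ on the strand of the gene. Aqp7 is on the minus strand at chr4:41047963-41048212, Aqp11 on the minus strand at chr7:97738248-97738497 and Aqp1 on the plus strand at chr6:55336049-55336298. Capitals mark AGGTCA or its reverse complement TGACCT, the core element of the nuclear receptors, the protein family that includes Pparg.
Aqp7: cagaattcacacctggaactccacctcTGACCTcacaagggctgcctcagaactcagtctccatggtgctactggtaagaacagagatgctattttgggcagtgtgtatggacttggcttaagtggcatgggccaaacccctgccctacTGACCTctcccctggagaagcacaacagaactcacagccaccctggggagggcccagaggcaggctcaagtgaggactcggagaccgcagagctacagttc
Aqp11: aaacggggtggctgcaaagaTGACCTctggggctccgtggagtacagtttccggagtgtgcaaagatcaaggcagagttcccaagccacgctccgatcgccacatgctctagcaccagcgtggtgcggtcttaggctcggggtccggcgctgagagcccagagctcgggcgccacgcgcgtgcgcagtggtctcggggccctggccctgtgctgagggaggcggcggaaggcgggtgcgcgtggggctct
Aqp1: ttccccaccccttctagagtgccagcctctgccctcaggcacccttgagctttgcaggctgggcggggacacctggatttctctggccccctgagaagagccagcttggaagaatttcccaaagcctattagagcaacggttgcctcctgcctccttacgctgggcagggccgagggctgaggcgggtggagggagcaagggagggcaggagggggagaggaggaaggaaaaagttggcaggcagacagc

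The Aqp7 sequence held TGACCT at 2 places, 223 and 101 bases before the start. A further annotated start of Aqp7 has an overlapping window with 1 match, 49 bases before that start, which is the same element as the one at 223 bases. The Aqp11 sequence held TGACCT once, 230 bases before its start, and the Aqp1 sequence held no match. Of 32851 such windows in the table, 14.0% held AGGTCA on either strand and 1.36% held it at 2 places or more. The direct repeat of AGGTCA with a spacer of 1 base is known as DR1. Searched without mismatches on either strand, it was in 0.0335% of the windows and in none of these promoters. So rare an exact match cannot show that DR1 elements are absent, and repeats with mismatches were not searched. In base composition the promoters also differed, with 56% G and C and 2 CpG dinucleotides for Aqp7, 62% and 5 for Aqp1, and 67.2% and 23 for Aqp11, beside medians of 52.4% and 6 over all windows. A match is a description of letters, and binding was not measured.

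By Pearson correlation of log2(FPKM + 1) over the 9 libraries, the tested genes most like Aqp7 were Prkar2b (r = 0.998), Seh1l (r = 0.998) and Adcy6 (r = 0.997). Prkar2b encodes a regulatory subunit of protein kinase A, and its mean was 463 FPKM in brown fat, 142 FPKM in white fat and 2.46 FPKM in soleus. Adcy6, an adenylyl cyclase that makes the cyclic AMP to which that kinase responds, was at 44.9, 29.0 and 9.07 FPKM in the same order. Seh1l, a gene of the nuclear pore, had 18.3, 13.7 and 6.56 FPKM. These 9 points form 3 tissue groups, so that any gene with the same order of tissue means scores high.

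Most genes of glycerol release and use were higher in fat than in soleus, and glycerol kinase and the mitochondrial dehydrogenase of its product had the largest differences of the list between brown and white fat. Of 12 listed genes of glycerol release and use, 10 had a row and all 10 were tested. Pnpla2 and Gpd1 were not analysed here. In brown against white fat 6 of the 10 were higher and 0 lower, with a median difference of 0.69 beside 0.03 for all genes, of which 38.0% were higher and 34.8% lower. Gk, glycerol kinase, was at 55.9, 44.9 and 38.2 FPKM in brown fat and 1.98, 1.59 and 2.28 in white fat, a difference of 3.99 (SE 0.13, adjusted p = 1.6e-09). Gpd2, the mitochondrial glycerol 3-phosphate dehydrogenase, was at 221.2 ± 16.9 FPKM in brown fat and 14.4 ± 1.02 in white fat (SD, n = 3), a difference of 3.85 (SE 0.09, adjusted p = 3.2e-10). The brown fat libraries lay above the white fat libraries without overlap for both genes. After rescaling to TPM the counts became 3 higher and 2 lower. The calls of Gk5 (0.24), Gpam (0.28) and Pck1 (0.94) were lost, and Mgll, monoacylglycerol lipase (-0.69, adjusted p = 8.6e-04), and Gpd1l (-0.67, adjusted p = 3.4e-05) became lower in brown fat. Gpd1l was lower in upper quartile scaling too (-0.20, adjusted p = 0.027). In TPM, Gk and Gpd2 had differences of 3.83 and 3.33.

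Aqp7 and Gk therefore stood in different proportion in the fats. Per library, Gk over Aqp7 was 0.649, 0.485 and 0.464 in brown fat and 0.0520, 0.0415 and 0.0496 in white fat. The soleus ratios of 0.115, 0.166 and 0.182 lay between them. All brown fat ratios lay above all white fat ratios, and no rescaling of libraries alters a ratio taken within each of them. Lipe, the hormone-sensitive lipase upstream of glycerol release, was at 517 ± 11.2 FPKM in brown fat and 469 ± 22.9 in white fat (SD, n = 3). Every brown fat library lay above every white fat library, but Lipe was not called between them (difference 0.14, SE 0.24, adjusted p = 0.62). In TPM the difference turned to -0.45 (adjusted p = 0.16).

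Against soleus, 9 of the 10 glycerol genes were higher in brown fat and 0 lower, with a median difference of 2.57 beside 0.29 for all genes, of which 52.9% were higher and 25.6% lower. The counts became 7 higher and 1 lower in median of ratios and in upper quartile scaling, where Gpd1l and Gpam lost their calls and Pgp became lower (-0.62, adjusted p = 1.2e-04, and -0.52, adjusted p = 2.7e-04). In white fat 8 were higher and 1 lower, with a median of 1.17 beside 0.35 for all genes, of which 54.5% were higher and 29.7% lower. Pck1, which makes the precursor of glycerol 3-phosphate from pyruvate carbon and had the highest mean of the list, was at 1862.6 ± 133.2 FPKM in brown fat and 644 ± 18.0 in white fat (SD, n = 3), and at 15.4, 5.61 and 2.14 FPKM in soleus. Its difference from soleus was 8.06 in brown fat (adjusted p = 2.4e-08) and 6.53 in white fat (adjusted p = 1.1e-07). Gpd2 followed in brown fat with 5.34 (adjusted p = 4.1e-12) and Lipe in white fat with 5.10 (adjusted p = 7.5e-09). Pgp, a phosphatase that can free glycerol from its phosphate, was the gene lower in white fat than in soleus, at -1.06 (adjusted p = 1.5e-06).

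**Figure D4:**
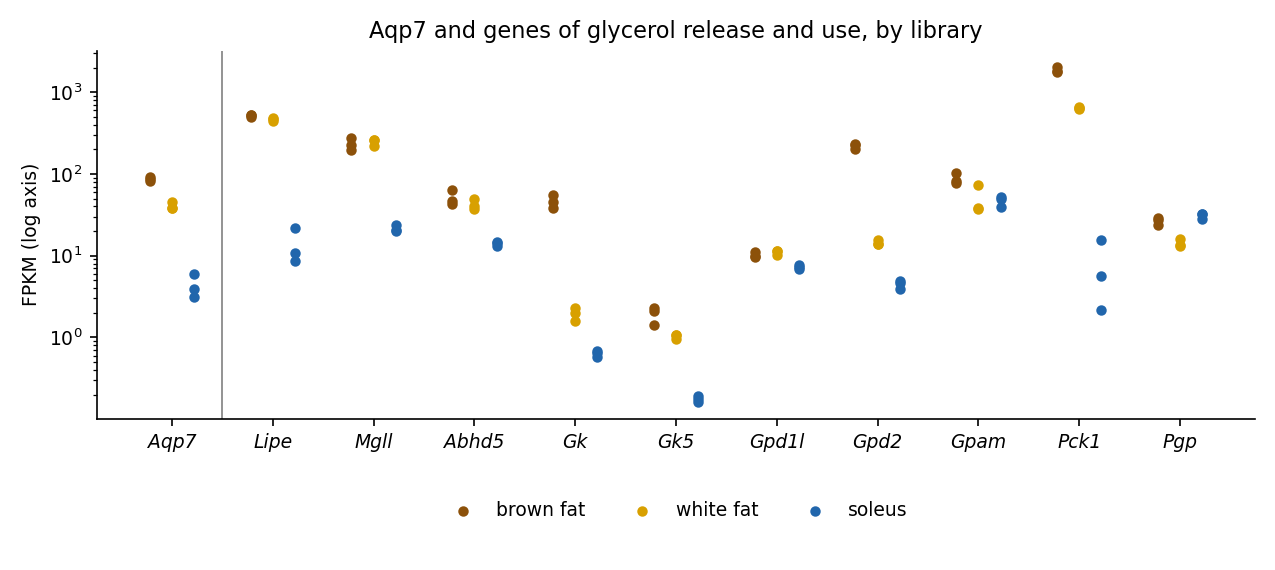
FPKM on a log axis (y axis) of Aqp7 and of the 10 genes of glycerol release and use with a row (x axis), with 1 point per library coloured by tissue. Gk and Gpd2 separate brown fat from white fat by more than Aqp7 does, and the brown and white points of Lipe and Mgll lie close together.

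Aqp9 and Aqp3, the other aquaglyceroporins, were low throughout. Aqp9 is known from hepatocytes and leukocytes. It was at 0.825, 0.490 and 1.06 FPKM in white fat (0.790 ± 0.285, SD, n = 3), at 0.0180, 0.0208 and 0 in brown fat and at 0.0386, 0.0219 and 0.0125 in soleus. Every white fat library lay above every library of the other tissues. The gene missed the minimum of 1 FPKM in 3 libraries, and in a fit without that filter its difference was -0.81 in brown against white fat (adjusted p = 1.1e-04) and 0.79 in white fat against soleus (adjusted p = 8.5e-05). White fat also held more leukocyte transcript in sum. Of 12 leukocyte markers listed, 9 had a row, with summed FPKM of 73.9, 81.5 and 97.4 in white fat against 10.6 to 14.2 in brown fat and, in soleus, 5.07 to 9.37, where Mpo was listed at 0. Csf1r, at 45.4 FPKM on average, was the largest part of the white fat sum. Of the 6 tested, 5 were lower and 1, S100a9, higher in brown against white fat, beside 34.8% and 38.0% of all genes. In white fat against soleus 5 were higher and 0 lower, beside 54.5% and 29.7%. The low Cd79a and Cd3e overlapped between the fats. The library highest in Aqp9, white fat replicate 3, was also the highest in this sum, while the lowest in Aqp9, replicate 2, was not the lowest. The part of leukocytes in Aqp9 was not tested. Even in white fat Aqp9 made up 0.452% to 1.10% of the aquaporin sum, beside 35.4% to 48.0% for Aqp7.

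Aqp3, a channel of skin and of the kidney collecting duct, is the next gene to Aqp7 in the RefSeq table, yet no library held more than 0.0319 FPKM of it. Brown fat had 0, 0.0156 and 0, white fat 0, 0.0285 and 0.0319, and soleus 0.0106, 0 and 0. The tissues overlapped, and without the filter no comparison was called (adjusted p = 0.24, 0.93 and 0.18). The tissue order of Aqp7 was thus not seen in its neighbour at this depth.

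Aqp1, the water channel of capillary endothelium and red cells, was abundant in all 3 tissues and differed little between them. It was at 81.5, 61.7 and 85.9 FPKM in brown fat (76.3 ± 12.9, SD, n = 3). White fat held 42.1, 65.9 and 45.5 FPKM (51.2 ± 12.9, SD, n = 3). Soleus held 50.1, 61.2 and 75.2 FPKM (62.2 ± 12.6, SD, n = 3). The ranges of all 3 tissues overlapped, with white fat replicate 2 above brown fat replicate 2. Brown fat was called higher than white fat by 0.58 (SE 0.20, adjusted p = 0.020), but this call did not hold in TPM (0.00, adjusted p = 0.998), in upper quartile scaling (0.47, adjusted p = 0.060) or without brown fat replicate 1 or 3 or white fat replicate 1 or 3 (adjusted p = 0.058, 0.076, 0.079 and 0.066). Over the 19 alternatives the adjusted p ran from 0.0032 to 0.998. Brown fat against soleus gave 0.30 (SE 0.20, adjusted p = 0.18) and turned to -0.04 and -0.14 in upper quartile and median of ratios scaling.

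White fat against soleus gave -0.28 for Aqp1 (SE 0.20, adjusted p = 0.19). It passed the threshold at -0.51 in upper quartile scaling (adjusted p = 0.036), at -0.71 in median of ratios scaling (adjusted p = 0.0061) and at -0.48 without white fat replicate 2 (adjusted p = 0.030), and turned to 0.27 in TPM. In the order brown fat, soleus, white fat, neighbouring tissues overlapped in their FPKM and were not called as deposited, and for soleus and white fat this depended on the scaling and on that library.

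In sum, endothelial transcripts ranked the libraries of each tissue as Aqp1 did, but single markers did not all do so. Of 12 endothelial markers listed, 11 had a row, and Esam was not analysed here. Their summed FPKM was 143.6, 129.5 and 145.1 in brown fat. White fat held 78.2, 122.2 and 98.0 and soleus 65.1, 67.8 and 73.9. Within each tissue, the libraries stood in the same order in this sum as in Aqp1, on 3 libraries each. Among single markers in brown fat, Kdr, Tek and Emcn were highest in replicate 2, where Aqp1 was lowest. Others, such as Pecam1, Cdh5 and Cldn5, were lowest there, and Cldn5 fell the most, at 25.1, 14.0 and 24.9 FPKM. In soleus, Kdr was highest in replicate 1, where Aqp1 was lowest. Of the 11 markers, 6 were higher and 1 lower in brown against white fat, beside 38.0% and 34.8% of all genes. In brown fat against soleus 10 were higher and 0 lower, beside 52.9% and 25.6%, and in white fat against soleus 3 were higher and 1 lower, beside 54.5% and 29.7%. Aqp1 over the sum was 0.567, 0.476 and 0.592 in brown fat and 0.538, 0.540 and 0.464 in white fat, ranges that overlapped. In soleus it was 0.770, 0.903 and 1.02, above every fat library. The part of endothelial cells in the differences of Aqp1 was not tested.

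Red cells carry Aqp1 as well. Of 11 red cell markers listed, 4 had a row, and their sum was 4.78 to 7.94 FPKM in brown fat, 6.40 to 11.6 in white fat and 1.37 to 2.42 in soleus, nearly all of it Alas2, the enzyme that starts haem synthesis in red cell precursors. The sum was lowest in soleus, where Aqp1 was not the lowest, and its part in Aqp1 was not tested. The tested genes most like Aqp1 over the 9 libraries were Usp38 (r = 0.925), Ccdc85a (r = 0.923) and Rasip1 (r = 0.915). Rasip1, a gene of blood vessel formation, averaged 5.91 ± 0.342 FPKM in brown fat, with 5.10 ± 0.640 in soleus and 4.20 ± 0.638 in white fat (SD, n = 3), the same order of means as Aqp1.

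**Figure D5:**
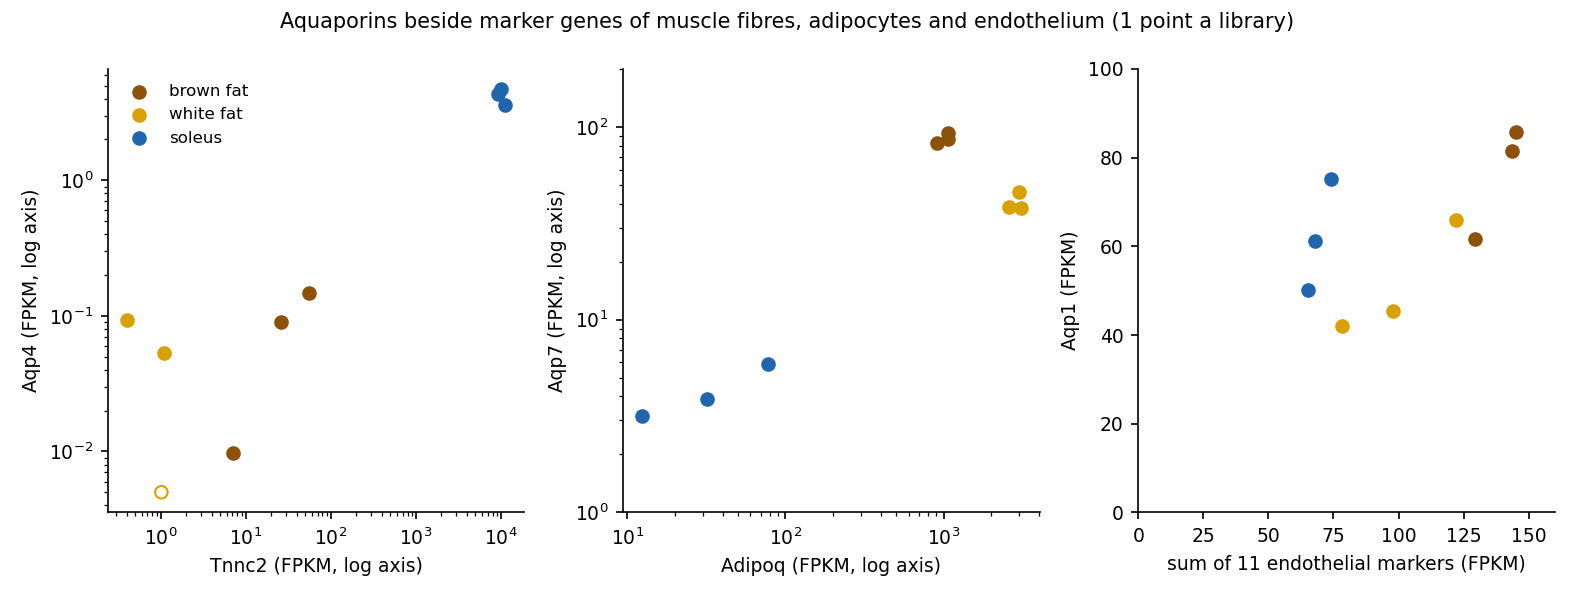
Aquaporins against marker genes with 1 point per library: Aqp4 against Tnnc2 (both FPKM, log axes, an open point marking a library where Aqp4 was listed at 0), Aqp7 against Adipoq (both FPKM, log axes) and Aqp1 against the summed FPKM of 11 endothelial markers (linear axes). Aqp1 and the endothelial sum rank the libraries alike within each tissue, and the white fat points of Adipoq lie to the right of brown fat while their Aqp7 is lower.

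Aqp4, the water channel of astrocytes and of muscle fibres, was higher in soleus than in either fat, while remaining far below Aqp1 there. Its level was 4.30, 3.60 and 4.70 FPKM in soleus (4.20 ± 0.559, SD, n = 3). Brown fat held 0.00979, 0.147 and 0.0895 FPKM and white fat 0.0929, 0 and 0.0528. All soleus libraries lay far above all fat libraries, and the fats overlapped. The difference was -2.26 in brown fat against soleus (SE 0.09, adjusted p = 2.2e-09) and -2.31 in white fat against soleus (SE 0.09, adjusted p = 1.8e-09), with 0.04 between the fats (adjusted p = 0.68). On the log2(FPKM + 1) scale the change of so low a gene is understated, and with a pseudocount of 0.1 the differences from soleus were -4.63 and -4.90, larger than the 4.35 and 3.26 of Aqp7 on that scale. The row of Aqp4 in the matrix also lists 4 non-coding accessions that matched no gene, so its value may include their reads. Within soleus, Aqp4 and Aqp7 were of like level per transcript length, 4.20 and 4.31 FPKM on average, and Aqp4 made up 5.20% to 7.04% of the aquaporin sum.

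Muscle transcripts ranked the 3 brown fat libraries as the traces of Aqp4 did, but the proportion of the 2 differed from that in soleus. Of 10 muscle fibre markers listed, 7 had a row, with summed FPKM of 19.8, 154.1 and 81.1 in brown fat, 2.35 to 4.07 in white fat and 25840 to 31506 in soleus. The soleus libraries held slow and fast fibre transcripts alike, with Myl2, the slow fibre myosin light chain, at 9797 ± 1132 FPKM and the fast Tnnc2 at 10208 ± 1066 FPKM (SD, n = 3). Tnnc2, which encodes troponin C of fast fibres, was at 7.05, 54.8 and 26.3 FPKM in brown fat. Aqp4 was lowest in brown fat replicate 1 and highest in replicate 2, as was Tnnc2. The part of muscle tissue in the brown fat values of Aqp4 was not tested. The genes most like Aqp4 over the 9 libraries were Scn4a (r = 0.999), Ano5 (r = 0.999) and Mafa (r = 0.999). Scn4a, the sodium channel of skeletal muscle, had a mean of 33.5 FPKM in soleus against 0.133 in brown and 0.00691 in white fat. Ano5, a membrane protein of the anoctamin family, had 14.1, 0.0574 and 0.0388 FPKM. Mafa, a transcription factor, had 2.72, 0.0819 and 0.0223 FPKM in the same order.

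Genes of the dystrophin complex, which holds Aqp4 in the fibre membrane, differed between muscle and fat in both directions. Of 14 listed genes of the complex, 13 had a row and 12 were tested, Sntg2 missing the minimum. In brown fat against soleus 6 of the 12 were higher and 6 lower, beside 52.9% and 25.6% of all genes, with a median of -0.27 beside 0.29. In median of ratios scaling 4 were higher, without Dag1 (0.13, adjusted p = 0.28) and Dtnb (0.23, adjusted p = 0.054). In white fat against soleus 5 were higher and 7 lower, beside 54.5% and 29.7% of all genes, with a median of -0.58 beside 0.35. In TPM 5 were lower there, without Dag1 (-0.07, adjusted p = 0.65) and Sspn (-0.02, adjusted p = 0.89). Sgca, a sarcoglycan largely proper to striated muscle, was higher in soleus, as Aqp4 was. It was at 100.5 ± 3.36 FPKM in soleus (SD, n = 3) against 0.0916, 0.286 and 0.209 in brown fat and 0, 0.0363 and 0.0253 in white fat, and its difference was -6.41 in brown fat (adjusted p = 9.6e-13) and -6.64 in white fat (adjusted p = 6.8e-13).

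The opposite direction was led by Sntb1, a β-syntrophin, with 28.3 ± 3.73 FPKM in white fat, 12.9 ± 2.57 in brown fat and 0.855 ± 0.331 in soleus (SD, n = 3). Its difference from soleus was 2.90 in brown fat (adjusted p = 2.4e-08) and 3.99 in white fat (adjusted p = 1.8e-09). Utrn, the dystrophin relative utrophin, was higher in the fats as well, by 1.66 (adjusted p = 1.3e-08) and 2.42 (adjusted p = 6.8e-10). Between the fats 3 of the 12 genes were higher in brown fat and 8 lower, beside 38.0% and 34.8% of all genes, with a median of -0.37 beside 0.03. Dag1, dystroglycan and the member with the highest mean, was higher in brown fat by 1.18 (adjusted p = 4.0e-06), and Sntb1 (-1.09, adjusted p = 9.5e-05) and Dtna, α-dystrobrevin (-0.86, adjusted p = 1.2e-05), were lower. Sgcb was higher by 0.32 (adjusted p = 0.0029) but lower in TPM, at -0.22 (adjusted p = 0.013).

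Aqp5 and Aqp8, water channels known chiefly from glands and epithelia, were scarce. Aqp5, the channel of salivary and lacrimal glands, was at 1.29, 0.726 and 0.729 FPKM in white fat (0.913 ± 0.322, SD, n = 3). It was listed at 0 in all 3 brown fat libraries and was at 0.0280, 0.0199 and 0.0228 FPKM in soleus. White fat thus lay above the other tissues in every library. Without the filter, which the gene missed, the difference was -0.92 in brown against white fat (adjusted p = 4.7e-05) and 0.89 in white fat against soleus (adjusted p = 3.7e-05). Aqp5 lies between Aqp2 and Aqp6 in the RefSeq table. Aqp2, the vasopressin-regulated channel of the collecting duct, was at 0.0229 to 0.174 FPKM over the 9 libraries with all tissues overlapping, and Aqp6, a channel of kidney intercalated cells, was listed at 0 in all 9.

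Transcripts of some epithelial markers were also found in white fat, chiefly Krt8 and Krt18, at 3.96 and 4.08 FPKM on average. Epcam, Cdh1 and Cldn7 were at 0.215, 0.0105 and 0 FPKM in white fat replicate 2. All 8 epithelial markers listed had a row, and their sum was 16.8, 5.85 and 9.90 FPKM in white fat. In brown fat it was 0.114 to 0.191 FPKM and in soleus 0.165 to 0.380 FPKM. Krt5, Krt14, Krt8 and Cldn4 were listed at 0 in all brown fat libraries, Krt5 and Cldn4 in all soleus libraries and Krt5 in all white fat libraries. White fat replicate 1 was the highest in this sum and in Aqp5. Mesothelial markers, 6 of 8 with a row, summed to 102.4, 98.3 and 68.7 FPKM in white fat, 1.20 to 1.42 in brown fat, where Wt1 and Bnc1 were listed at 0, and 0.251 to 2.13 in soleus. The part of epithelial or mesothelial cells in Aqp5 was not tested.

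Aqp8, a channel of gut, pancreas and liver, was at 0.133, 0.168 and 0.240 FPKM in soleus (0.180 ± 0.0545, SD, n = 3). It was listed at 0 in all brown fat libraries and at 0.0429, 0 and 0 in white fat. The soleus libraries lay above all others, and without the filter the difference was -0.24 in brown fat against soleus (adjusted p = 1.9e-04) and -0.22 in white fat against soleus (adjusted p = 2.7e-04). Of 10 pancreas acinar markers listed, 9 had a row, and in soleus they summed to 0.575 to 1.19 FPKM with Cpa1, Prss1 and Pnlip listed at 0. In brown and white fat, where 7 of the 9 were listed at 0, they summed to 1.38 to 3.25 and 9.33 to 14.1 FPKM. Cela1, an elastase, made up most of the sum in every tissue, at 0.757 FPKM on average in soleus, 2.09 in brown fat and 12.1 in white fat, whereas no library held more than 0.0870 FPKM of any other of these markers. The part of such cells in Aqp8 was not tested.

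Aqp11 belongs to the less conserved branch of the family, and its protein is found on the endoplasmic reticulum. It was at 2.23, 2.26 and 1.54 FPKM in brown fat (2.01 ± 0.407, SD, n = 3). White fat held 2.38, 2.82 and 2.47 FPKM (2.56 ± 0.236, SD, n = 3), and soleus 0.574, 0.264 and 0.246 (0.361 ± 0.185, SD, n = 3). Both fats lay above soleus in every library, and white fat lay just above brown fat. The mean was 5.56 times that of soleus in brown fat and 7.08 times in white fat, with differences of 1.14 (SE 0.12, adjusted p = 6.0e-06) and 1.39 (SE 0.12, adjusted p = 9.2e-07). Brown against white fat gave -0.25 (SE 0.12, adjusted p = 0.086), which became a call in TPM (-0.85, adjusted p = 0.0030) and in upper quartile scaling (-0.32, adjusted p = 0.039). Taken from the median of all genes, the difference was -0.28 as deposited, -0.35 in TPM and -0.28 in upper quartile scaling.

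In share of the aquaporin sum, which no rescaling alters, Aqp11 held 0.905% to 1.44% in brown fat, 2.58% to 2.81% in white fat and 0.294% to 0.940% in soleus. Soleus replicate 1, the library highest in Adipoq within that tissue, was also the highest in Aqp11, and the part of adipocytes there was not tested. The tested genes most like Aqp11 over the 9 libraries were Irf1 (r = 0.994), Cdkn2c (r = 0.992) and Pde1b (r = 0.991). Cdkn2c, a cell cycle inhibitor, had a mean of 91.8 FPKM in brown fat, 139.3 FPKM in white fat and 5.15 FPKM in soleus. Irf1, an interferon response factor, had 9.17, 10.2 and 3.34 FPKM, and Pde1b, a phosphodiesterase of cyclic nucleotides, had 2.18, 2.81 and 0.296. The remaining aquaporins with a row added nothing above these levels, since Aqp12 was listed at 0 in all 9 libraries and Mip, the lens channel, stayed between 0 and 0.0330 FPKM.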

How the data were processed

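Per the labels' protocols, total RNA was extracted with TRIzol and made into libraries with an Illumina TruSeq kit. Per the submitters' processing notes, TopHat 1.4.1, Cufflinks 2.0.1 and the build mm9 were used, and the handling of multiply mapped reads is not stated there. The authors deposited FPKM values in a matrix of 18401 rows named by RefSeq accessions. Symbols came from a RefSeq table of another build for 18302 rows and from GENCODE for 41. The 55 rows with no symbol and 3 with several, 0.0339% to 0.360% of a library's FPKM, were left out, and rows of the 541 repeated symbols were summed. RefSeq coordinates are given only for promoters, with their build.

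FPKM are not counts, so no count test was run. limma 3.58.1 under R 4.3.3 was fitted to log2(FPKM + 1) of all 9 libraries, using limma's trend option (6 residual degrees of freedom), two-sided, with Benjamini-Hochberg adjustment within each of the 3 comparisons. Differences are on that scale, which understates the change of low genes. The script was tested on simulated data. Relative depth came from the ratios of values at or under 0.3 FPKM, which agreed to 0.03 log2 units with 1 set of depths for 33 of 36 library pairs. Same-numbered libraries of different tissues correlated between -0.22 and 0.077 in their deviations from tissue means, so the numbers were not taken as pairs.

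The aquaporins, the gene lists and the rule for naming genes were chosen with earlier results of these data known. Named were all aquaporins with a row, from the glycerol and dystrophin lists up to 2 called genes per direction and comparison, by size of change, with the gene of highest mean, and the 3 genes most correlated with each tested aquaporin. A result for 1 gene that this rule names is not reported here. Genes whose calls moved with scaling, Lipe beside Aqp7 between the fats, and single marker genes were named after their values were seen.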

Additional observations from a re-analysis of the deposited data

How the results depend on the processing

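Each of 19 alternatives changed a single choice: the pseudocount, the filter, the scaling, the libraries fitted, the trend, the replicate block or the row kept per symbol. Rescaling to TPM raised all values, those of white fat the most, so that the same pseudocount of 1 also weighed less there. For low genes, moves in TPM thus mix the scaling with the pseudocount. All results for Aqp7 and Aqp4 kept their direction and their side of the threshold under each alternative, but sizes moved. In TPM the differences of Aqp4 from soleus were -3.48 in brown fat and -3.51 in white fat. Those of Aqp11 were 1.74 and 2.59. For Aqp7 in white fat against soleus the difference was 3.74 in TPM and 2.63 in median of ratios scaling. For Aqp11, 2 of 57 results became calls, and for Aqp1, 3 of 57 turned in direction, 6 lost and 3 gained a call. The cause of these changes was not tested. Without the filter, 4 aquaporins were called in brown against white fat and 6 in white fat against soleus, since Aqp5, Aqp8 and Aqp9 then entered. Leaving out single libraries gave 1 to 2 calls in brown against white fat, with 1 call, Aqp7 alone, without brown fat replicate 1 or 3 or white fat replicate 1 or 3.

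Rescaling moved the median difference of all genes from 0.03 to -0.495 in brown against white fat (TPM), from 0.29 to 0.04 and -0.04 in brown fat against soleus (upper quartile and median of ratios) and from 0.35 to 0.93, 0.17 and 0.01 in white fat against soleus (TPM, upper quartile and median of ratios). In brown against white fat in TPM, Lipe turned to -0.45, Abhd5 to -0.34 and Sgcb to -0.22, and without brown fat replicate 3 Mgll turned to 0.015. In brown fat against soleus, Aqp1 turned to -0.043 (upper quartile) and -0.14 (median of ratios), and Pgp to 0.074 with the highest row per symbol. In white fat against soleus, Aqp1 turned to 0.27 in TPM, and Gpam to -0.21 (upper quartile), -0.41 (median of ratios), -0.29 without white fat replicate 2 and -0.11 without soleus replicate 2, within a range of -0.29 to 0.18 over single libraries left out.

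In the fit with a replicate block, 7017, 7628 and 8252 genes were called in brown against white fat, brown fat against soleus and white fat against soleus, and no call of an aquaporin changed. The adjusted p of Aqp1 between the fats was 0.026 with the block, and that of Aqp7 was 3.6e-04. Read totals are unknown, so the number of fragments behind the lowest levels, those of Aqp3 and Aqp8 and of Aqp4 in fat, cannot be given.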
